A study of Homo sapiens with 15 samples.

Results

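The comparison set p65 against VP64, each fused to a nanobody, in cells without guide RNAs. It used 6 of the 15 RNA-seq libraries of the study, chosen by their labels alone: 3 libraries (A, B and C) of the p65 line without guides and 3 of the VP64 line without guides. Both lines derive from MelJuSo, a human melanoma cell line, and both express 5xALFA-dCas12a-VP64, a nuclease-dead Cas12a that carries the activation domain VP64 and a tag of repeated ALFA peptides. They differ in the vector for the ALFA-binding nanobody, which is nanobody-p65 in one line and nanobody-VP64 in the other, so VP64 was present on dCas12a in both. Levels are also given for the line without an activation domain (5xALFA-dCas12a and the nanobody alone, no guides, 3 libraries). The same pair of nanobodies with guides against CD4 (3 p65 and 3 VP64 libraries) served as a second, separate set of libraries. The labels do not say whether A, B and C were separate cultures, so the spread behind the p-values may be technical only. Each nanobody without guides was present as 1 line, and the sources used here do not give its clonality. The activation domain therefore cannot be told apart from other differences between the lines.

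VP64 is a string of repeats of the minimal activation domain of the herpesvirus protein VP16. The p65 domain comes from RELA, a subunit of the transcription factor NF-kB. NF-kB dimers are held in the cytoplasm by inhibitor proteins of the IkB family and, once released, bind kappa-B sites and raise inflammatory and survival genes as well as their own inhibitors. Both domains recruit coactivators such as Mediator and histone acetyltransferases. dCas12a binds DNA where a CRISPR RNA directs it, and neither line compared here had guides. Fos and Jun proteins, which recur in the results, pair to form AP-1, a factor that growth signals raise within minutes in many cell types.

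Expected counts, which are the reads RSEM assigned to each gene, summed to between 18587381 and 22623405 in the 6 libraries, and 19898 to 20315 genes had a count. Levels are given as CPM, counts per 1e+06 after library scaling, or as the deposited TPM, which also divides by transcript length. In all, 14961 genes were tested with edgeR's quasi-likelihood test, with p-values adjusted over all of them and a threshold of 0.05. Fold changes are p65 over VP64 on the log2 scale, with SE and 3 libraries per group. The melanocyte markers SOX10, at 122 to 153 TPM, and S100B, at 43.6 to 57.2 TPM, were present in all 6 libraries. PMEL, TYR, MITF and PAX3 lay between 2.72 and 13.2 TPM, and MLANA, which encodes a melanosome protein, was at 0 to 0.53 TPM. Markers of T cells (2 tested), myeloid cells (11), epithelium (6) and fibroblasts or endothelium (4) included none past the threshold. That test compares p65 with VP64 and does not show whether a marker was expressed. Summed over each list, the 6 libraries had 222 to 237 CPM for T cell markers and 99.9 to 139 CPM for myeloid ones. The sums were 64.7 to 75.3 CPM for epithelium and 57.9 to 71.1 CPM for fibroblasts or endothelium. Of the 9 T cell markers only 2 had enough counts to be tested, and 4 had no count in any of the 6 libraries. The T cell sum therefore rests on few genes.

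Between p65 and VP64, 58 genes were higher with p65 and 257 were lower (edgeR, adjusted p under 0.05). These are 0.388% and 1.72% of the genes tested, 2.11% together. The differences were small. Of the 315 genes, 270 differed by less than 1.5-fold and 35 by between 1.5-fold and 2-fold. At least 2-fold differences numbered 1 higher and 9 lower. The higher one was SENP3-EIF4A1, a read-through of adjoining genes with a mean of 0.843 CPM, below the level set for naming and named after its value was seen (2.04, SE 0.503, adjusted p = 0.0321). The median log2 fold change was 0.30 among the higher genes and -0.32 among the lower ones, with 0.00407 over all genes tested. The p65 and VP64 libraries did not overlap for any of the 315, as was also so for 20.4% of all genes tested. Among the higher genes 57 of 58 were protein coding, and among the lower genes 251 of 257. An unadjusted p under 0.05 was reached by 2127 genes. The count of higher genes was smaller in each fit that left out 1 library, and each such fit also had fewer samples. It was 22 without VP64 A, 23 without VP64 B, 22 without VP64 C, 28 without p65 A, 19 without p65 B and 54 without p65 C. The count of lower genes was 163 without VP64 C and 157 without p65 A. With an offset for the deposited effective lengths, 11 genes were higher and 98 lower. The 65 called genes picked by the naming rules given at the end were followed one by one. Among the lower ones the effective-length offset ended the calls of FOS, MPP4, SERPINB7, CDH19, SORBS2, RGPD1, LTBP3, NDRG1, JAG1, CCN1, TNFRSF12A and SQSTM1. Among the higher ones it ended those of KISS1, DCT, UNC5B, WDR27, UPK3BL1, ZNF678, ZNF92, MTATP6P1, ASAP1, CCNG1, GCLM, MT-CO1, MT-ND3 and MT-ND4. It kept the signs of all 26 (adjusted p from 0.0513 to 0.613). Called genes described below that those rules did not pick, such as MT-ATP6, ADM and JUN, are not covered by these names. The counts of called mitochondrial, hypoxia and immediate-early genes also fell with that offset, as given below. In bulk RNA a change in the share of cells that express a gene cannot be told apart from a change in RNA per cell.

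**Figure D1:**
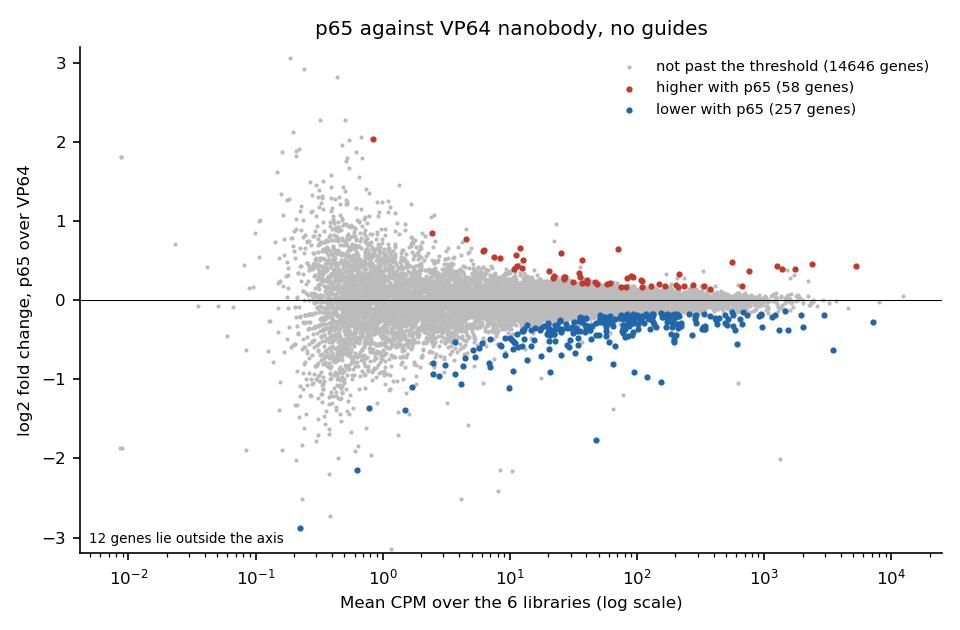
Log2 fold change of p65 over VP64 without guides (vertical axis) against the mean CPM over the 6 libraries (horizontal axis, log scale) for the 14961 genes tested. Red points are the 58 genes higher with p65 and blue points the 257 lower, and most of both lie close to 0.

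NF-kB genes were examined first because p65 is an NF-kB subunit. None of the 11 genes for NF-kB subunits and inhibitors passed the threshold, and their median log2 fold change was -0.01, with a range of -0.19 to 0.20. RELA (ENSG00000173039.18, hg38 chromosome 11, 65653596 to 65663094) had 115, 114 and 117 CPM in the p65 libraries A, B and C, and 118, 123 and 117 CPM in the VP64 libraries. The groups overlapped, and the log2 fold change was -0.05 (SE 0.038, adjusted p = 0.637). As TPM, RELA was 81.1 ± 11.0 with p65 and 75.4 ± 5.63 with VP64 (SD, n = 3 each, exact 2-sided permutation p = 0.6). The sources used here do not give the part of RELA that the p65 construct holds, so RELA is no check of the labels. NFKB1, which encodes the p50 subunit, had 57.8, 64.2 and 61.1 CPM with p65 and 67.5, 68.3 and 71.4 CPM with VP64. All 3 p65 values were below all 3 VP64 values, and the log2 fold change was -0.18 (SE 0.048, adjusted p = 0.058). It passed in the DESeq2 Wald test (adjusted p = 0.0442), in the fit without p65 B (0.0498) and where genes had to average 1 CPM to be tested (0.0461). The other subunit genes NFKB2, REL and RELB had log2 fold changes of 0.02, 0.20 and 0.07. The inhibitor genes NFKBIA and NFKBIE, whose products hold NF-kB in the cytoplasm, had -0.02 and 0.02.

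Over all genes tested, 1.72% were lower with p65 and 0.388% higher, the shares to set beside the list counts that follow. Of 20 genes that act upstream of NF-kB or feed back on it, 1 was lower and none higher, with a median of -0.03. The lower gene was TNIP1, whose product binds the NF-kB inhibitor A20. It had 118, 120 and 125 CPM with p65 and 149, 141 and 134 CPM with VP64 (log2 fold change -0.22, SE 0.044, adjusted p = 0.00586). Its adjusted p without VP64 A was 0.0554. Of 28 tested NF-kB target genes 2 were lower and none higher, with a median of -0.12. With no low-count filter 5 were lower. LIF, a cytokine of the interleukin 6 family, had 162, 160 and 164 CPM with p65, against 228, 238 and 217 CPM with VP64 and 255 to 272 CPM without an activation domain. It was lower in all 3 p65 libraries (log2 fold change -0.49, SE 0.043, adjusted p = 4.89e-07). CXCL1, a chemokine that draws neutrophils, had 16.8, 15.1 and 17.9 CPM with p65, against 25.6, 22.4 and 23.3 CPM with VP64 (-0.51, SE 0.075, adjusted p = 0.000247). It stood at 66.1 to 70.1 CPM in the line without an activation domain. CXCL8, a related chemokine, had 65.6, 83.4 and 88.1 CPM with p65 and 97.6, 88.0 and 99.6 CPM with VP64 (-0.26, SE 0.088, adjusted p = 0.145), and the groups overlapped.

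Immediate-early genes, which respond to growth signals without new protein synthesis, held the largest fall among called genes with a symbol and at least 1 CPM on average. Of 22 tested, 8 were lower with p65 and none higher, against 1.72% lower and 0.388% higher over all genes tested. Of the 22, 19 had a negative log2 fold change, with a median of -0.22. FOS (ENSG00000170345.9, chromosome 14, 75278774 to 75282230) encodes the AP-1 subunit c-Fos. It had 35.3, 20.8 and 9.64 CPM in the p65 libraries A, B and C, against 95.1, 73.6 and 51.3 CPM with VP64 and 230, 188 and 101 CPM without an activation domain. Every p65 library was below every VP64 library (log2 fold change -1.77, SE 0.414, adjusted p = 0.0226). The call for FOS was lost without VP64 A (adjusted p = 0.12), VP64 B (0.0669), p65 B (0.098) or p65 C (0.109), with log2 fold changes of -1.39 to -1.77. EGR1, a zinc finger factor (chromosome 5, 138465490 to 138469315), had 117, 100.5 and 86.2 CPM with p65, against 239, 209 and 171 CPM with VP64. The line without an activation domain had 127, 115 and 83.3 CPM, so the VP64 values were the high ones of the 3 lines. The log2 fold change was -1.03 (SE 0.188, adjusted p = 0.00267). For both FOS and EGR1, library A was the highest and library C the lowest in each of the 5 lines of the study.

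The remaining immediate-early genes that fell did so by less. JUN, the partner of Fos in AP-1, had 168, 163 and 153 CPM with p65 and 246, 227 and 221 CPM with VP64 (-0.52, SE 0.095, adjusted p = 0.00274). IER3, a stress-induced gene that affects cell survival, had 161, 164 and 178 CPM with p65, against 223, 206 and 206 CPM with VP64 (-0.33, SE 0.053, adjusted p = 0.000668). IER2, IER5, FOSL1 and KLF6 had log2 fold changes of -0.34, -0.29, -0.23 and -0.21. FOSB, a close relative of FOS, had -1.09 but did not pass (adjusted p = 0.114), and MYC had -0.10 (adjusted p = 0.526). Among 19 genes that report on or damp ERK signalling, which lies upstream of many immediate-early genes, none passed, with a median of -0.06. Of these 19, 15 had a negative log2 fold change, and in the lines with guides 7 were lower and none higher. With an effective-length offset 5 immediate-early genes were lower.

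RefSeq promoter sequences, covering 250 bases before to 50 after a gene's start, were taken for the first 4 genes in each direction (GRCh38.p14), of which UNC5B and MTATP6P1 were not matched. Of the genes in the promoter table, 3 are shown because FOS had the largest fall, LYPD1 was lower with the surest call among the first 4, and KISS1 had the largest rise. The windows lie at chr14:75278578-75278877 on the plus strand, chr2:132671477-132671776 on the minus strand and chr1:204196442-204196741 on the minus strand. Each is written 5′ to 3′ along its gene, with matches to the motifs searched in capitals.
FOS: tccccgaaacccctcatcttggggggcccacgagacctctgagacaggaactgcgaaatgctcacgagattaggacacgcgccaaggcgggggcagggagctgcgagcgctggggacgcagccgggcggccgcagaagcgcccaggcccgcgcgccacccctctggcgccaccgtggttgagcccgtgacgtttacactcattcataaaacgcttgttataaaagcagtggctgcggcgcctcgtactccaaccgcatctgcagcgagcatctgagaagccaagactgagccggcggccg
LYPD1: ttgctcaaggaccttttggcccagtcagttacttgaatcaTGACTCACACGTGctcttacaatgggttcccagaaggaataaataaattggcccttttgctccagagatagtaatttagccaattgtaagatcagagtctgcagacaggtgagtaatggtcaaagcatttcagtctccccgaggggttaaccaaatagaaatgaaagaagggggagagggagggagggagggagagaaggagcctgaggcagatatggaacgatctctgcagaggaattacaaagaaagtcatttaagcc
KISS1: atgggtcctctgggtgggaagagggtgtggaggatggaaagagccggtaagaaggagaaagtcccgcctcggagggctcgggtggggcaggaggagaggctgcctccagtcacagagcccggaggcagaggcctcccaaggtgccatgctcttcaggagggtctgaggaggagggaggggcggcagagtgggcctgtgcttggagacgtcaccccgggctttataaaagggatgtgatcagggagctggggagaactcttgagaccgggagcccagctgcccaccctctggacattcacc
The capitals in LYPD1 mark an AP-1 site that starts 210 bases before the gene start and an adjoining E-box that starts 203 bases before it, and neither of the other windows held a match. The motifs, on both strands, were AP-1 (TGACTCA or TGAGTCA), the E-box of MITF (CATGTG or CACGTG), TEAD (GGAATG), and the kappa-B and CArG motifs. AP-1 letters were in 7.62% of 210 promoters of genes lower with p65, 5% of 40 of genes higher, 3.15% of 11048 tested genes and 4.92% of all 27305 promoters. Kappa-B letters were in 14.8% of the lower, 17.5% of the higher and 12.8% of the tested genes, and in 10.8% of all promoters. CArG letters, which serum response factor binds, were in 3.81%, 2.5% and 1.02%, and in 1.29% of all. The E-box was in 11.9% of the lower, 5% of the higher and 16% of the tested genes, and in 17.9% of all. TEAD letters were in 9.52% of the lower, 10% of the higher and 11% of the tested genes, and in 14% of all. Among the 40 higher genes the shares rest on 2 promoters for AP-1, 7 for kappa-B, 1 for CArG, 2 for the E-box and 4 for TEAD. CArG letters were in 8 of the 210 promoters of lower genes. These shares are descriptions with no test.

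In the lists of matrix, adhesion and TGF-beta genes, more members were lower than higher with p65. The lists do not hold every such gene. Among called laminin chains outside them, LAMA5 was higher (0.34), while LAMB1 (-0.19) and LAMB3 (-0.14) were lower. Of 30 tested collagen and matrix genes 9 were lower and none higher, against 1.72% lower and 0.388% higher over all genes tested. The median of the 30 was -0.22. TGFBI, a TGF-beta-induced matrix protein (ENSG00000120708.16, chromosome 5, 136028895 to 136063818), was counted in the TGF-beta list and not among these 30. TGFBI had the smallest p of all genes. It had 75.1, 83.4 and 82.5 CPM with p65, against 160, 156 and 157 CPM with VP64, which gave -0.97 on the log2 scale (SE 0.045, adjusted p = 6.97e-12). The line without an activation domain, at 140 to 148 CPM, lay nearer to VP64. THBS1 encodes thrombospondin 1, a secreted glycoprotein that inhibits angiogenesis. It had 2659, 2824 and 2711 CPM with p65, against 4245, 4242 and 4189 CPM with VP64 and 2032 to 2273 CPM without an activation domain. The log2 fold change was -0.63 (SE 0.037, adjusted p = 4.48e-10), and p65 lay between the other lines. MMP2, a gelatinase, had 32.2, 32.3 and 30.4 CPM with p65 and 50.1, 52.7 and 53.8 CPM with VP64 (-0.73, SE 0.064, adjusted p = 6e-07). COL5A1, a fibrillar collagen chain, had 22.7, 22.9 and 22.2 CPM with p65, against 32.2, 34.4 and 34.1 CPM with VP64 (-0.57, SE 0.060, adjusted p = 4.08e-06). The groups did not overlap for any of these genes. COL6A3, COL13A1, FN1, SPARC, TNC and MMP14 had log2 fold changes of -0.83, -0.29, -0.36, -0.34, -0.38 and -0.32.

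For the lists that follow, the shares over all genes tested were 1.72% lower and 0.388% higher. Of 21 TGF-beta and BMP response genes 4 were lower and none higher, and 19 were negative, with a median of -0.21. Besides TGFBI these were PMEPA1, a feedback inhibitor of TGF-beta signalling (-0.42, SE 0.050, adjusted p = 1.84e-05), LTBP3, which binds latent TGF-beta (-0.44, SE 0.072, adjusted p = 0.00104), and ID1, a BMP target (-0.34, SE 0.050, adjusted p = 0.000304). ID1 had 125, 119 and 127 CPM with p65, against 160, 162 and 147 CPM with VP64 and 97.0 to 105 CPM without an activation domain. KLF10, a TGF-beta-inducible gene outside this list, was higher with p65 (0.30, SE 0.052, adjusted p = 0.00161). Of 38 adhesion and guidance genes 8 were lower and 1 higher, with a median of -0.08. NRP2, a co-receptor for semaphorins and VEGF, had 46.1, 45.3 and 49.7 CPM with p65 and 82.0, 84.4 and 81.4 CPM with VP64 (-0.81, SE 0.058, adjusted p = 1.88e-08). Its level was 123 to 129 CPM without an activation domain. The semaphorins SEMA3B and SEMA3C had -0.56 and -0.49, the integrins ITGB8, ITGB3 and ITGA4 had -0.61, -0.53 and -0.26, and the cadherins CDH19 and CDH2 had -0.96 and -0.28. CDH19 was low, with 1.83 to 1.94 CPM with p65 and 3.17 to 4.02 CPM with VP64, and lost its call without VP64 B, VP64 C, p65 A or p65 B (adjusted p from 0.0562 to 0.0722). Without p65 A, 5 of these 38 genes were lower. Among 17 YAP/TEAD targets 3 were lower (CCN1, CRIM1 and AMOTL1) and 1 higher (ASAP1), with a median of -0.03. The lower count was 5 in DESeq2's Wald test, in a fit of the 6 libraries alone and with no low-count filter. It fell to 1 without VP64 A, VP64 B or p65 A, and the higher to 0 without VP64 A, VP64 C, p65 A or p65 B. Of 22 Notch and Wnt genes 2 were lower. DKK1, a secreted Wnt inhibitor, had 427, 441 and 461 CPM with p65 and 542, 534 and 545 CPM with VP64 (-0.29, SE 0.040, adjusted p = 0.00016). JAG1, a Notch ligand, had -0.39, and lost its call without VP64 B, VP64 C, p65 A or p65 B (adjusted p from 0.061 to 0.117).

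**Figure D2:**
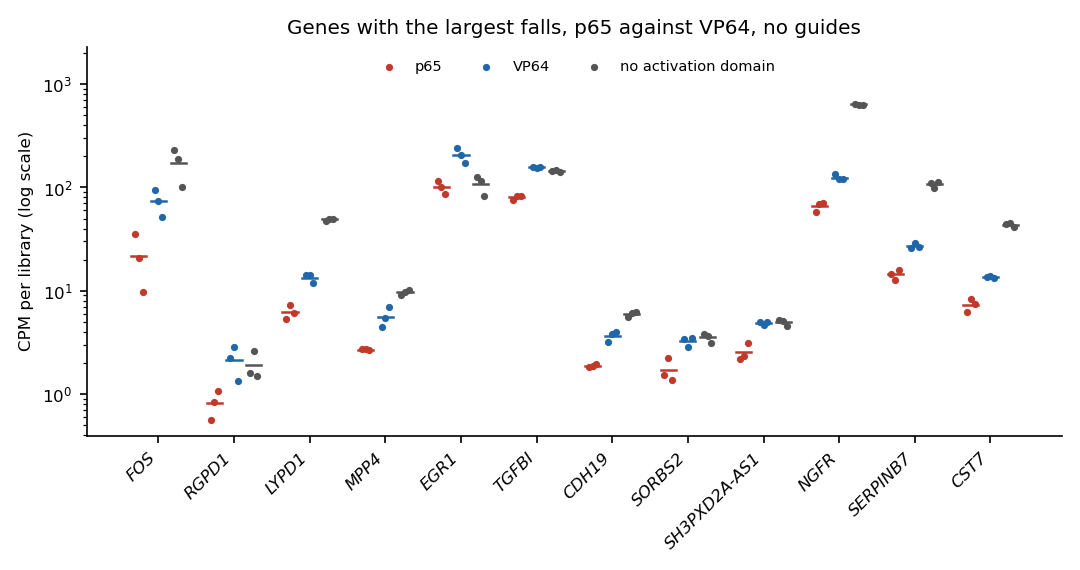
CPM per library (log scale) of the 12 genes with the largest falls among called genes with a symbol and a mean of at least 1 CPM, in the p65, VP64 and no-activation-domain lines. Each point is 1 library and each bar a mean of 3. Only genes whose groups did not overlap were drawn, so every p65 point lies below every VP64 point of the same gene.

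Melanoma cells are described along a range of states, in which pigment genes under MITF mark a differentiated end and genes such as NGFR, JUN and TNC a dedifferentiated one. Of 21 genes of the dedifferentiated state 8 were lower and none higher, with a median of -0.09. Of 19 melanocyte lineage genes 1 was higher and none lower, with a median of -0.07. The shares over all genes tested were 1.72% lower and 0.388% higher. Several members of the first list also stand among the matrix, adhesion and immediate-early genes above. NGFR, the low-affinity nerve growth factor receptor (ENSG00000064300.8, chromosome 17, 49495293 to 49515017), had 58.2, 69.5 and 71.0 CPM with p65, against 135, 120 and 120 CPM with VP64. Both lay far below the 633 to 646 CPM of the line without an activation domain. The log2 fold change was -0.91 (SE 0.084, adjusted p = 7.97e-07). Against the line without an activation domain NGFR had -3.27 with p65 and -2.36 with VP64, contrasts that share the same control libraries. NRG1, a ligand of ERBB receptors, had -0.32 (SE 0.074, adjusted p = 0.0201). DCT, which encodes dopachrome tautomerase, an enzyme of melanin synthesis, was the only one of the 19 listed lineage genes past the threshold. It had 5.14, 6.14 and 5.90 CPM with p65 and 3.79, 3.33 and 2.95 CPM with VP64 (0.77, SE 0.159, adjusted p = 0.00908), and its call was lost without VP64 C (0.0625) or p65 B (0.0515). The lineage regulators MITF and SOX10 had log2 fold changes of 0.10 and -0.18 and did not pass. The lineage list does not hold every pigment-cell gene. Outside it, the melanosome genes GPNMB, MLPH and MFSD12 were called lower with p65 (-0.36, -0.28 and -0.32).

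Among genes of hypoxia and glycolysis 6 of 28 were lower and none higher, against 1.72% lower and 0.388% higher over all genes tested. Of the 28, 27 were negative, with a median of -0.08. SLC2A1, the glucose transporter GLUT1, had 566, 625 and 625 CPM with p65 and 780, 717 and 729 CPM with VP64 (-0.30, SE 0.047, adjusted p = 0.000713). PKM, the pyruvate kinase of muscle and tumours, had -0.19 (SE 0.031, adjusted p = 0.000715), and HK2, a hexokinase, had -0.29 (SE 0.053, adjusted p = 0.00268). NDRG1, ADM and BHLHE40 had -0.30, -0.26 and -0.26. With an effective-length offset 3 were lower. Of 23 genes of the ATF4 and CHOP stress response 3 were lower and none higher, and 5 were lower with no low-count filter. SLC7A5 and SLC3A2 encode the chains of the LAT1 amino acid transporter. SLC7A5 had 825, 839 and 868 CPM with p65, against 1084, 1073 and 1043 CPM with VP64 (-0.34, SE 0.035, adjusted p = 3.59e-06), and SLC3A2 had -0.25 (SE 0.040, adjusted p = 0.000639). PPP1R15A, a phosphatase subunit that restores translation after stress, had -0.28. Among 23 lysosome and autophagy genes 3 were lower, namely GPNMB, a melanosome glycoprotein (-0.36, SE 0.042, adjusted p = 1.86e-05), WIPI1 (-0.32) and the autophagy receptor SQSTM1 (-0.18). SQSTM1 lost its call without p65 A (adjusted p = 0.0661).

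Other genes among the 12 largest falls belonged to no shared list. LYPD1, a membrane-anchored protein that binds nicotinic receptors, had 5.35, 7.23 and 6.07 CPM with p65, against 14.1, 14.1 and 11.8 CPM with VP64 and 47.6 to 49.7 CPM without an activation domain (log2 fold change between p65 and VP64 -1.10, SE 0.109, adjusted p = 1.9e-06). SERPINB7, a protease inhibitor, had 14.6, 12.7 and 15.8 CPM with p65 and 25.9, 29.1 and 26.3 CPM with VP64 (-0.91, SE 0.097, adjusted p = 4.31e-06). CST7, a cystatin that inhibits lysosomal proteases, had 6.21, 8.32 and 7.48 CPM with p65 and 13.7, 13.97 and 13.4 CPM with VP64 (-0.90, SE 0.098, adjusted p = 5.65e-06). For these genes p65 was the farthest from the line without an activation domain, in which SERPINB7 stood at 99.0 to 113 CPM and CST7 at 41.5 to 44.95 CPM. MPP4 had 2.64 to 2.71 CPM with p65 and 4.40 to 6.97 CPM with VP64 (-1.06, SE 0.172, adjusted p = 0.00087). SORBS2 had -0.93, and its call was lost without VP64 A, VP64 C, p65 A or p65 C (adjusted p from 0.0705 to 0.0979). Both remaining names are uncertain. RGPD1 (-1.38) belongs to a family of near-identical copies, and its call was lost without VP64 A, VP64 B, p65 A or p65 B (adjusted p from 0.0845 to 0.163). SH3PXD2A-AS1 (-0.93) is annotated antisense to another gene, and the sources used here do not give the strandedness.

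Higher with p65 were first the transcripts of the mitochondrial genome, which encodes subunits of the respiratory chain and ATP synthase. Of 13 tested 7 were higher and none lower, against 0.388% higher and 1.72% lower over all genes tested. All 13 were positive, and the median was 0.37. MT-CO3, a subunit of cytochrome c oxidase, had 1857, 2231 and 1812 CPM with p65, against 1453, 1462 and 1567 CPM with VP64 (0.40, SE 0.066, adjusted p = 0.00109). MT-CO1, another subunit, had 5921, 7133 and 5261 CPM with p65 and 4358, 4429 and 4770 CPM with VP64 (0.43, SE 0.084, adjusted p = 0.00477). Library p65 B was the highest for both. MT-ND4, MT-ATP6, MT-ND2, MT-ND1 and MT-ND3 had log2 fold changes of 0.46, 0.43, 0.39, 0.37 and 0.33. Together the mitochondrial genes took 2.03%, 2.47% and 1.81% of the counts with p65, against 1.52%, 1.55% and 1.70% with VP64 and 1.26% to 1.56% without an activation domain. More mitochondria and more RNA per mitochondrion cannot be told apart in such data, and RNA quality is not recorded in the sources used here. The count of 7 fell to 2 without VP64 A, VP64 B or p65 B, to 4 in the DESeq2 Wald test and to 1 with an effective-length offset. It was 12 in a fit of the 6 libraries alone and 13 with no low-count filter. MTATP6P1 (0.64) is a nuclear copy of MT-ATP6, so reads may be shared between them and its value is uncertain.

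Of the nuclear genes that were higher, few belonged to a list. BCAM, a laminin receptor and blood group antigen (ENSG00000187244.11, chromosome 19, 44809059 to 44821421), had 26.7, 31.3 and 33.4 CPM with p65, against 20.6, 19.2 and 20.5 CPM with VP64 and 4.39 to 5.56 CPM without an activation domain. Its log2 fold change was 0.60 (SE 0.081, adjusted p = 9.31e-05), so p65 was highest of the 3 lines. PLTP, which transfers phospholipids between lipoproteins, had 42.4, 44.2 and 42.5 CPM with p65 and 31.0, 29.02 and 30.7 CPM with VP64 (0.51, SE 0.061, adjusted p = 2.08e-05). It was the only one of 16 LXR and PPAR lipid-handling genes to pass, and with VP64 B left out 2 passed. PPME1, a methylesterase of protein phosphatase PP2A (chromosome 11, 74171099 to 74254703), had 642, 663 and 650 CPM with p65, against 467, 456 and 479 CPM with VP64 and 315 to 328 CPM without an activation domain. All 3 p65 values were above the rest (0.48, SE 0.063, adjusted p = 6.47e-05). ADAM11, a protein of the ADAM family, had 14.1, 16.2 and 14.6 CPM with p65, 10.7, 9.62 and 11.4 CPM with VP64 and 13.96 to 15.5 CPM without an activation domain (0.50, SE 0.093, adjusted p = 0.00317). KISS1, which encodes the metastasis suppressor kisspeptin, had the largest rise among called genes with a symbol and a mean of at least 1 CPM. It had 3.21, 3.28 and 2.95 CPM with p65, against 1.64, 1.43 and 2.14 CPM with VP64 and 6.26 to 7.53 CPM without an activation domain (0.85, SE 0.208, adjusted p = 0.0287). Its call was lost with any library left out other than VP64 C (adjusted p from 0.0502 to 0.16).

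The other genes among the 12 largest rises had less stable calls. UNC5B, a netrin receptor, had 6.01 to 8.84 CPM with p65 and 4.71 to 5.04 CPM with VP64 (0.64, SE 0.147, adjusted p = 0.0203), and lost its call when any library other than p65 A was left out (adjusted p from 0.0624 to 0.145). WDR27 (0.62), the zinc finger genes ZNF678 (0.55) and ZNF92 (0.54) and UPK3BL1 (0.57), which has close copies, lost theirs in 4 or more of the 6 fits that leave out 1 library, p65 A among them for each (adjusted p from 0.056 to 0.275). Single genes were higher in a few lists. KIF11, a mitotic kinesin, had 291, 303 and 291 CPM with p65 and 263, 260 and 251 CPM with VP64 (0.20, SE 0.037, adjusted p = 0.00365) and was the only one of 26 mitosis genes to pass. CCNG1, a p53 target, had 0.19 (adjusted p = 0.0235) and GCLM, a subunit of the glutathione-making ligase, had 0.22 (adjusted p = 0.0345). CCNG1 lost its call without VP64 B, VP64 C, p65 A or p65 B (adjusted p from 0.0592 to 0.168), and GCLM without any library other than p65 C (adjusted p from 0.0677 to 0.221).

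**Figure D3:**
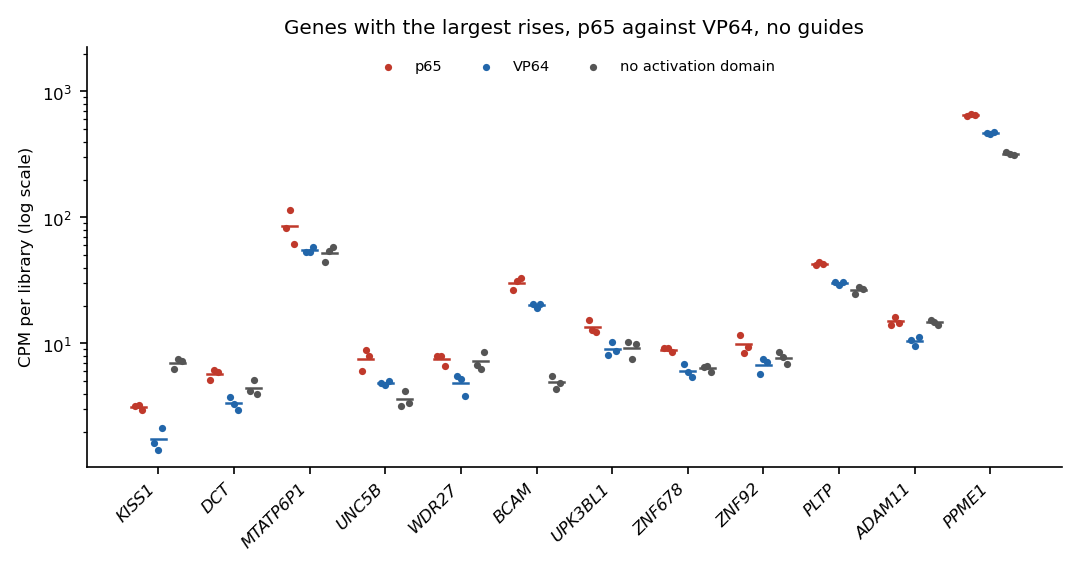
CPM per library (log scale) of the 12 genes with the largest rises among called genes with a symbol and a mean of at least 1 CPM, in the p65, VP64 and no-activation-domain lines. Each point is 1 library and each bar a mean of 3. Only genes whose groups did not overlap were drawn, so every p65 point lies above every VP64 point of the same gene.

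Several lists had no member past the threshold in either direction. These were 37 interferon-stimulated genes (median log2 fold change -0.02), 15 genes of MHC class I presentation (-0.03), 16 of MHC class II presentation (-0.07), 14 complement genes (0.05), 33 transcription coactivators (0.05) and 21 genes of the unfolded protein response (0.02). They also included 27 genes of cholesterol and fatty acid synthesis (-0.03), 29 of DNA replication (0.04), 17 G1 cyclins and CDK inhibitors (-0.06), 16 heat shock chaperones (0.05), 35 cytosolic ribosomal proteins (0.01) and 12 cancer-testis antigens, with a median close to 0. Ribosomal proteins ranged only from -0.05 to 0.09. Within the MHC class II list CD74, the invariant chain, had 922, 981 and 1041 CPM with p65 and 1089, 1061 and 1065 CPM with VP64 (-0.13, SE 0.065, adjusted p = 0.392). Of 19 tested TNF family genes 2 were lower, NGFR and TNFRSF12A, the TWEAK receptor (-0.19, SE 0.041, adjusted p = 0.0161). TNFRSF12A lost its call without VP64 A (0.106) or p65 B (0.103). Over the 729 different list genes tested, 14 were higher and 52 lower, against 58 and 257 of all 14961 genes tested. The lists were chosen with earlier results of these data known, so these counts are no test. Called genes were also better expressed, with a median level of 67.4 CPM for lower and 53.4 CPM for higher genes. The median over all genes tested was 21.3 CPM.

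**Figure D4:**
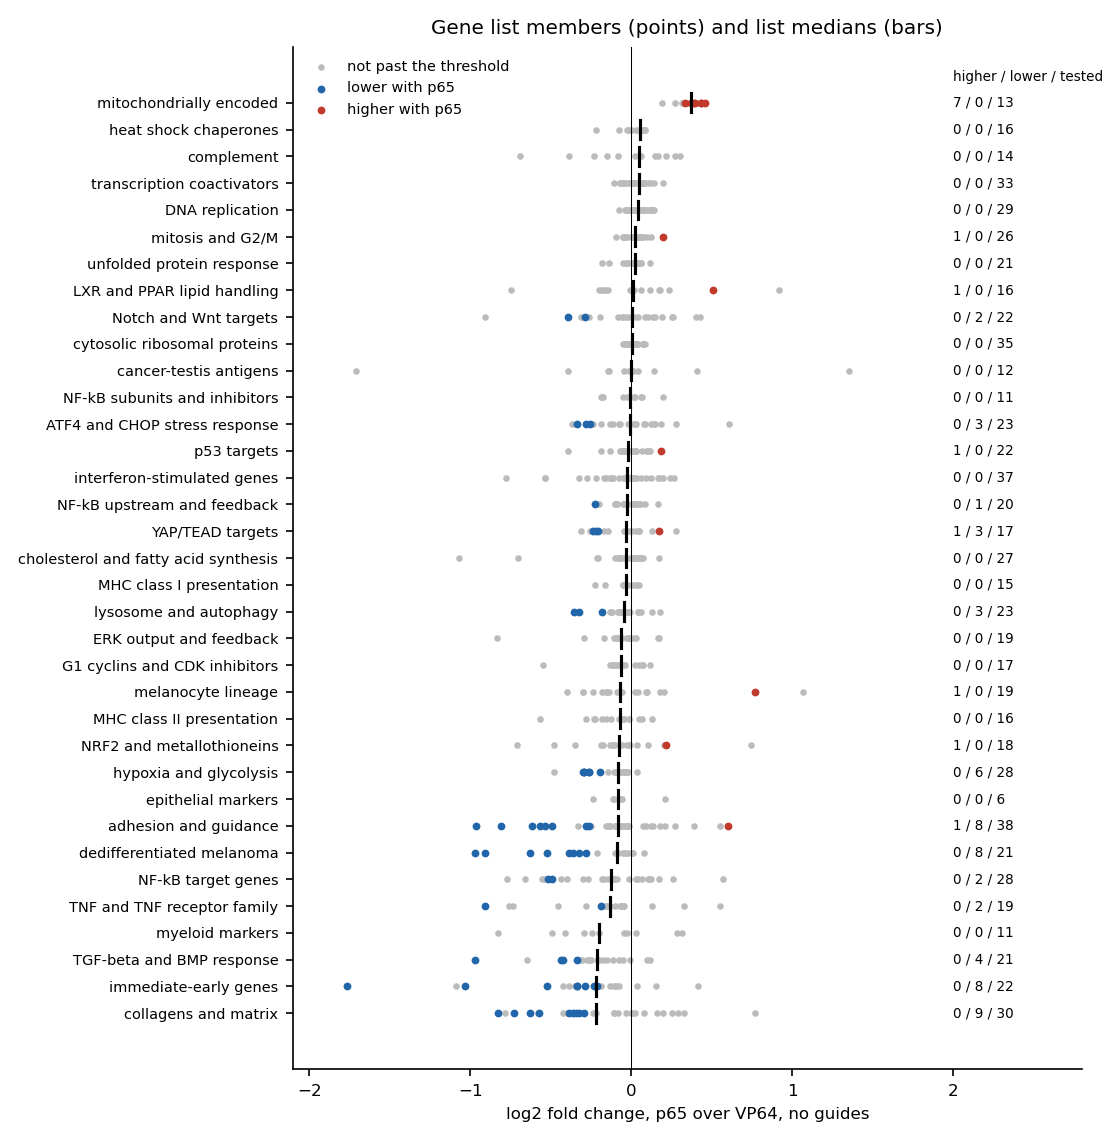
Log2 fold change of p65 over VP64 without guides (horizontal axis) for each tested member of the lists with at least 5 tested genes. Points are genes, bars list medians, and the numbers give members higher, lower and tested; the lowest medians are those of matrix, immediate-early and TGF-beta genes and the highest that of mitochondrially encoded genes, at 0.37.

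CD4, the target of the guides in the other lines, had 10.0, 11.1 and 10.8 CPM with p65 and 8.65, 8.40 and 9.43 CPM with VP64 in these lines without guides. The log2 fold change was 0.27 (SE 0.163, adjusted p = 0.485). As TPM it was 5.31 ± 0.382 with p65 and 4.24 ± 0.397 with VP64 (SD, n = 3 each), and the exact 2-sided permutation test gave p = 0.1, the smallest that 3 libraries against 3 allow. The line without an activation domain had 0.53 to 2.16 TPM.

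The same nanobodies were compared in the lines with guides against CD4, which share no libraries with the lines above. There 557 genes were higher with p65 (3.72%) and 628 lower (4.2%). Of the 315 genes called without guides 264 had the same sign with guides (83.8%, against 59.2% of all genes tested). The same direction was called with guides for 179 of them, which is 56.8% of the 315 and 15.1% of the 1185 genes called with guides. By direction these were 160 of 257 lower genes (62.3%) and 19 of 58 higher genes (32.8%). The median log2 fold change with guides was -0.25 for the lower genes and 0.15 for the higher ones. TGFBI had -1.15 with guides, FOS -1.76, EGR1 -0.88, NGFR -0.92, NRP2 -0.91 and MMP2 -0.70, each past the threshold. MT-CO3 had 0.33, PPME1 0.83 and PLTP 0.29, also past it, while KISS1 had 0.91 (adjusted p = 0.058) and BCAM 0.15 (adjusted p = 0.32).

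The difference between the effects without and with guides was called for 143 genes (0.956% of those tested) and for 27 of the 315, 25 of them lower without guides. Opposite directions were called for 7 genes, namely FN1, TUBB2A, NFASC, PLOD2, HBEGF, CCN1 and NABP1, each lower with p65 without guides and higher with guides. FN1, which encodes fibronectin, had -0.36 (SE 0.076, adjusted p = 0.0103) without guides and 0.41 (SE 0.076, adjusted p = 0.00114) with guides, and the difference had an adjusted p of 0.000313. TUBB2A, a tubulin, had -0.19 without and 0.39 with guides (adjusted p of the difference 7.29e-06). THBS1 had the same sign in both, but -0.63 without guides and -0.23 with them (adjusted p of the difference 0.000178). DCT had 0.77 without guides and -0.31 with them (adjusted p of the difference 0.0192).

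**Figure D5:**
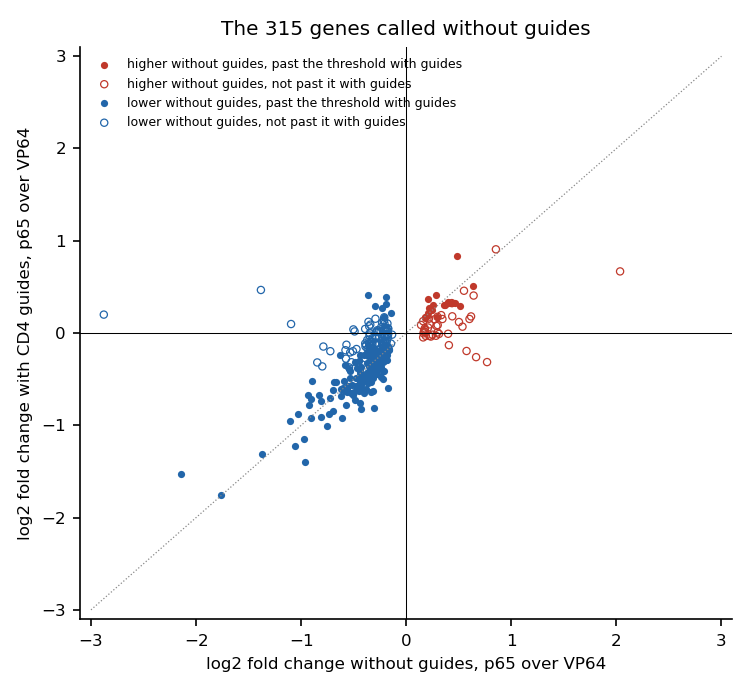
Log2 fold change of p65 over VP64 with CD4 guides (vertical axis) against that without guides (horizontal axis) for the 315 genes called without guides. Filled points also passed the threshold with guides, and 264 points lie in the quadrants of equal sign; the dotted line marks equal values.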

How the data were processed

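Total RNA from confluent MelJuSo lines was sequenced by a service provider, per the labels. The authors aligned reads to hg38 with STAR and deposited RSEM's expected counts for each gene, per the submitters' processing notes. Each table also holds deposited TPM, which per the file headers is abundance scaled by transcript length, and deposited effective lengths (another unit, in bases), used in 1 alternative only. The sources used here do not give versions, settings or strandedness. Of 58813 entries, 58721 matched GENCODE release 29, and 92 spike-in entries (0 to 7 counts per library) were left out.

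Expected counts, of which 21.4% of the nonzero ones were not whole, were rounded and fitted in edgeR 4.0.16 (R 4.3.3) by quasi-likelihood over all 15 libraries, with 1 coefficient per line, TMM factors (0.993 to 1.014 in the 6 libraries) and filterByExpr with a minimum count of 10. The Benjamini-Hochberg adjustment ran over 14961 genes, and the threshold was 0.05. Standard errors come from the F statistic. The typical biological coefficient of variation was 5.45%, with 10 residual degrees of freedom. Totals of 15643706 to 23072513 counts over the 15 libraries leave rare genes imprecise. The libraries of each line differed by more than sampling noise.

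Named genes were RELA, CD4, all NF-kB subunit and inhibitor genes, up to 12 genes per direction with a symbol, a mean of at least 1 CPM, no overlap between groups and the largest fold change among those called, and up to 4 members of each of 37 lists with the smallest p. The result of 1 of these genes is not reported here. Further called list members are given with their values, chosen after these were seen. The members and lists were chosen with earlier results of these data known. Alternatives were DESeq2 1.42.0 (Wald test, or its size factors in edgeR), other low-count filters, the 6 libraries alone, the replicate letter as a block, unrounded counts, an effective-length offset and leaving out each library. The letters were checked for pairing over all genes and did not meet the rule for it, a correlation over 0.1 in every same-letter pair.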

Additional observations from a re-analysis of the deposited data

Results flagged for a closer look

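For 12 of the named genes reported here the p65 against VP64 effect differed between the lines without and with guides by a test of the difference itself (edgeR, adjusted over 14961 genes). The differences that follow are log2 fold changes without guides minus those with guides. DCT had 1.08 (adjusted p = 0.0192). The interferon-stimulated gene IFI44 had -0.63 (adjusted p = 0.0196), from -0.22 without and 0.41 with guides. INSIG1, a regulator of sterol synthesis, had 0.61 (adjusted p = 0.0135), from -0.21 and -0.83. HK2 had -0.45 (adjusted p = 0.00268), COL5A1 -0.44 (0.00731), THBS1 -0.40 (0.000178), CCN1 -0.39 (0.00731), SPRY2 0.33 (0.0456), IER3 0.31 (0.0437), CRIM1 -0.30 (0.00221), SDC4 -0.30 (0.00268) and CCND1 0.26 (0.0158).

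Spike-in entries, which no comparison used, held 0, 7 and 1 counts in the p65 libraries A, B and C without guides, against 2, 4 and 3 counts in the VP64 libraries without guides and 1 count in each library of the line without an activation domain.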

How the results depend on the processing

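The directions of the 65 called named genes held under every one of the 14 alternatives that gave an adjusted p; DESeq2's Wald test gave none for KISS1 and RGPD1. Calls were kept under all of them by 37 genes and were lost with the effective-length offset by 26, of which 5 were lost nowhere else. With that offset 11 genes were higher and 98 lower, 0 and 3 of them by at least 2-fold, 39 list members were called, and 104 of the 315 genes kept their call, while the coefficient of variation was 10.7% in place of 5.45%. With no low-count filter 136 were higher and 409 lower, 31 and 43 of them by at least 2-fold, 108 list members were called, and 360 genes differed between the effects without and with guides. DESeq2's Wald test called 61 higher and 319 lower, 0 and 4 of them by at least 2-fold. A filter at a mean of 1 CPM left 0 higher by at least 2-fold. The letters did not meet the rule for pairing (correlations of same-letter deviations over all genes -0.0505, -0.0189 and 0.0572). With the replicate block 44 genes were higher and 231 lower, 2 of them higher by at least 2-fold, and 267 of the 315 kept their call; FOS, whose levels follow the letters in every line as do those of EGR1, had an adjusted p of 9.89e-09 and EGR1 of 8.47e-08, while WDR27 (0.0501), GCLM (0.0542), ZNF678 (0.06) and ZNF92 (0.068) did not pass. Leaving out each library gave 19 to 54 higher and 157 to 247 lower, 0 to 3 and 5 to 8 of them by at least 2-fold, with fewer samples in each fit. RELA and CD4 passed the threshold under none of these alternatives. The causes of the other changes were not tested.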

Other observations

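PPME1 and C2CD3, a centriole gene, start 0.111 kb apart on chromosome 11 and were both higher with p65, a pair chosen after the values were seen. C2CD3 had 92.1 ± 1.33 CPM with p65, against 75.5 ± 2.74 CPM with VP64 and 62.3 ± 1.24 CPM without an activation domain (SD, n = 3 each), and its log2 fold change was 0.29 (SE 0.060, adjusted p = 0.0108). With guides it had 61.8 CPM with p65 and 46.6 CPM with VP64 (0.41, adjusted p = 0.000255). The other 10 tested genes that start within 500 kb of PPME1, among them POLD3 (0.01) and RAB6A (0.01), did not pass without guides.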
